A study of Mus musculus with 5 samples.

Results

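The RNA methyltransferases that work outside the Mettl3-Mettl14 complex and the enzymes that supply and clear the methyl donor S-adenosylmethionine (SAM) were followed here as 10 genes, chosen by name and matched to the Ensembl IDs of the deposited table: 10 of 43432 genes in all. The group held Mettl16, Mettl5, Zcchc4, Pcif1, Mettl4 and Trmt112 on the RNA side, and Mat2a, Mat2b, Ahcy and Ahcyl1 on the SAM side. Poly(A) RNA had been sequenced from retinas of pups aged 7 postnatal days, in 2 libraries labelled Mettl14 cko (a and b) and 3 control libraries (a, b and c). The labels name no allele, Cre driver, strain or sex for either group; the deposited table is named with Six3 and with letters that could be short for both Mettl3 and Mettl14, which no label explains. Libraries held 24315693 to 27100918 counted reads. No label says that they came from separate animals. Sex-linked genes read 1 cko library as female and 1 as male, and 2 controls as female and 1 as male. The libraries of a group were therefore not all repeats of 1 sample. Whether those read as the same sex came from separate animals is not known. A p-value here reflects the spread among libraries, which may be partly technical.

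The Mettl3-Mettl14 complex writes most N6-methyladenosine (m6A) on messenger RNA, and other enzymes methylate adenosines elsewhere. Mettl16 modifies the U6 small nuclear RNA and hairpins of the Mat2a transcript, Mettl5 with its partner Trmt112 modifies the RNA of the small ribosomal subunit, Zcchc4 that of the large subunit, Pcif1 the adenosine next to the messenger RNA cap, and Mettl4 the U2 small nuclear RNA. All of them take the methyl group from SAM, which Mat2a makes from methionine and ATP with the regulatory subunit Mat2b. The product, S-adenosylhomocysteine, inhibits methyltransferases and is hydrolysed by Ahcy. Ahcyl1, also called IRBIT, is an Ahcy-like protein that binds the inositol trisphosphate receptor.

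One of the links among these genes can be read in their sequence. Mettl16 recognises the sequence UACAGANAA (N, any base) in hairpins of the Mat2a 3′ untranslated region, and through them Mat2a splicing and stability follow the SAM level. The reference Mat2a transcript Mat2a-201 (GENCODE M21, GRCm38, minus strand of chromosome 6, 2804 bases, coding from base 123 to base 1307) held 6 matches, all in the 3′ untranslated region, as the map of the transcript shows. They are given 5′ to 3′ in DNA letters with 10 flanking bases on either side; capitals mark the match.

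Mat2a match 1, chr6:72434245-72434253: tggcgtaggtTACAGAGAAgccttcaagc
Mat2a match 2, chr6:72433461-72433469: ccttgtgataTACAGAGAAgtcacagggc
Mat2a match 3, chr6:72433282-72433290: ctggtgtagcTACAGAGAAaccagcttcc
Mat2a match 4, chr6:72433167-72433175: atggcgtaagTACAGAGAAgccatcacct
Mat2a match 5, chr6:72433056-72433064: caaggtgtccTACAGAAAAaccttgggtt
Mat2a match 6, chr6:72432948-72432956: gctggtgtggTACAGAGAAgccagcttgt

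Coordinates are those of the match alone. The same letters occurred at least once, on the transcript's own strand, in 2364 of 21901 genes with a protein-coding transcript (10.8%), and 1 gene, Mat2a itself, had 6 in a single transcript. Matches are a description of the reference; methylation was not measured in these libraries.

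**Figure D1:**
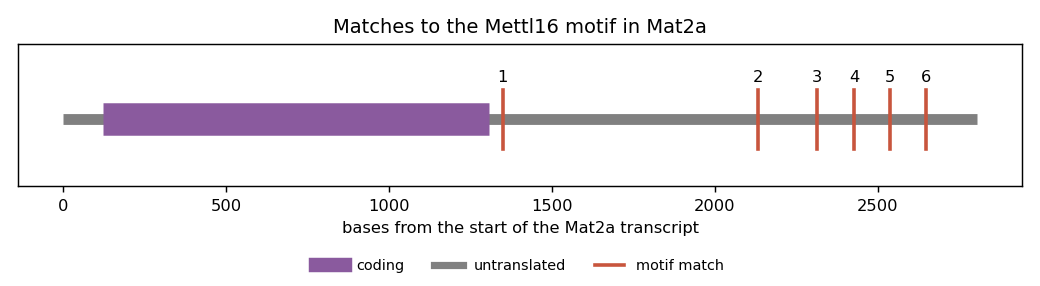
Map of the Mat2a-201 transcript, in bases from its start (x axis), with the coding part as the thick bar, the untranslated parts as the thin bar and each match to TACAGANAA as a numbered line. Match 1 lies just past the coding part, at base 1350, and matches 2 to 6 lie between bases 2134 and 2647, in the second part of the 3′ untranslated region.

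A sequence shared by 3 of the 10 genes lay near annotated transcription starts. The longest run of bases found in promoter windows (250 bases before to 50 after a RefSeq gene start, GRCm38.p6) of at least 3 of the 10 genes was AAGATGGCGGCGC, 13 bases. It lay on the gene's own strand in Mettl16, Zcchc4 and Pcif1, all on the RNA side. In Zcchc4 it lay in the second of 2 windows, at an alternative start inside the gene as GENCODE places it; Pcif1 and Ahcyl1 also had more than 1 window. The run resembles the TISU element, which contains the core bound by the factor YY1, though the bases before it differ among the 3 genes. Relative to the RefSeq gene start, it began at position 0 in Mettl16, 33 in Zcchc4 and -58 in Pcif1. Capitals mark the run.

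Mettl16, chr11:74770855-74770883, plus strand: ggctgcgcAAGATGGCGGCGCgcttggag
Zcchc4, chr5:52783080-52783104, plus strand: tcggcagaAAGATGGCGGCGCccat
Pcif1, chr2:164879302-164879330, plus strand: ccacactcAAGATGGCGGCGCggccgtgg

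Counted on both strands, 43 of 27025 genes with a window held these letters (0.159%). The run was found by searching the windows of these genes themselves, so the count is a description only. TATAAA, searched the same way, occurred in windows of 2 of the 10 genes, Mat2a and Ahcyl1, against 15.7% of all genes, and GGGCGG in 7 of the 10, against 38.2%; neither overlaps the longer run. In Mat2a the TATAAA lay shortly before the gene start: chr6:72439575-72439596, minus strand, ccctgctcTATAAAtactgggc.

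The genes named in the label and the series title come first among the measurements. Levels are given as CPM, the share of its library that a gene's reads take, after scaling each library total by its TMM factor. Mettl14 was at 55.6 and 44.7 CPM in cko a and b, against 41.5, 46.7 and 38.7 CPM in control a, b and c. The groups overlapped, and no fall of Mettl14 was measured (log2 fold change of cko over control 0.25, SE 0.20; edgeR adjusted p = 0.640). Mettl3 was at 65.6 and 51.9 CPM in cko a and b, against 72.3, 71.3 and 65.9 CPM in controls (log2 -0.25, SE 0.19; edgeR adjusted p = 0.615). Both cko libraries lay below every control, cko a only just. Groups did not overlap in 29.4% of all genes tested. Mettl3 shares 18.4% of its exon length with Tox4, a gene on the other strand (log2 -0.07, SE 0.18), and reads there cannot be assigned without a strand setting. The counts cover whole genes, so a deletion of single exons was not measured, and directions are given for the libraries by their label.

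None of the 10 genes passed edgeR's quasi-likelihood test at an adjusted p under 0.05 over the 17039 genes tested; 0.0998% of all genes tested did. DESeq2 and limma-voom also called 0 of the 10. At an unadjusted p under 0.05 stood 1 of the 10, Pcif1, against 10.8% of all genes tested. All 10 passed the filter on low counts. In this fit the 95% intervals of the 10 genes lay between a fold of 0.557 and a fold of 1.62. None of them reached a halving or a doubling, as the plot of differences shows. Intervals can be wider with a library left out: without control a the log2 of Pcif1 was -0.446 with an SE of 0.264. For genes whose exons overlap other genes, the interval describes the counted reads only. Of the 10, 6 had a log2 fold change above 0, against 49.1% of all genes tested. Their median log2 fold change was 0.10, beside -0.01 over all genes tested, and their median absolute log2 was 0.18, beside 0.26.

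Pcif1, the cap-adjacent adenosine methyltransferase, had the largest difference of the 10. It was at 81.5 and 87.9 CPM in cko a and b, against 119, 108 and 119 CPM in control a, b and c. Both cko libraries lay below every control, and the gap was wider than the spread within either group. The means were 84.7 ± 4.50 CPM (SD, n = 2) in cko and 115 ± 6.03 CPM (SD, n = 3) in controls, a log2 fold change of -0.45 (SE 0.18; 95% interval -0.85 to -0.05), which did not pass over all genes (edgeR adjusted p = 0.443). Pcif1 (ENSMUSG00000039849) is a protein-coding gene on the plus strand of chromosome 2, from 164879304 to 164894454; 16.9% of its exon length is shared with Zfp335, a gene on the other strand, and without a stated strand setting reads there cannot be assigned. Zfp335 was at 17.6 and 23.0 CPM in cko libraries, against 20.8, 24.1 and 19.6 CPM in controls (log2 -0.08, SE 0.23), groups that overlapped.

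Mettl16, the U6 and Mat2a methyltransferase, was at 54.5 and 59.2 CPM in cko a and b, against 46.1, 48.3 and 53.1 CPM in control a, b and c. Both cko libraries lay above every control, by a margin smaller than the spread among the controls: cko a exceeded control c only slightly. The log2 fold change was 0.21 (SE 0.19; 95% interval -0.20 to 0.62; edgeR adjusted p = 0.666). Mettl16 (ENSMUSG00000010554) lies on the plus strand of chromosome 11, from 74770830 to 74828525.

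Mettl5 and Trmt112, the enzyme and the cofactor that stabilises it, were both measured with overlapping groups. Mettl5 (chromosome 2, minus strand, 69871198 to 69885615) was at 11.4 and 10.1 CPM in cko a and b, against 12.1, 10.1 and 14.4 CPM in controls (log2 -0.18, SE 0.24; edgeR adjusted p = 0.775). It shares 6.93% of its exon length with Ssb, a far more abundant gene on the other strand, which was at 254 and 176 CPM in cko a and b, against 217, 200 and 349 CPM in controls (log2 -0.25, SE 0.27). Both genes were highest in control c. Reads in the shared stretch cannot be assigned without a strand setting, so the level and the difference of Mettl5 are uncertain. Trmt112 (chromosome 19, plus strand, 6909698 to 6911049) was at 54.1 and 43.7 CPM in cko a and b, against 41.9, 48.7 and 43.4 CPM in controls (log2 0.13, SE 0.20; edgeR adjusted p = 0.811). In Trmt112 cko a was the highest library and cko b lay inside the control range, and without cko a, which leaves 1 cko library, its log2 was -0.031. Trmt112 has 33.2% of its exon length in common with Prdx5 and 5.92% with Esrra, both on the other strand; the Prdx5 and Esrra log2 fold changes were -0.29 (SE 0.19; edgeR adjusted p = 0.574) and -0.68 (SE 0.23; edgeR adjusted p = 0.433). A processed copy, Trmt112-ps2, held 275 and 230 counts in cko libraries and 291, 303 and 185 in controls, and may share reads with Trmt112, so the level of Trmt112 is uncertain.

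Zcchc4, the large-subunit RNA methyltransferase, and Mettl4, the U2 enzyme, were the other 2 genes on the RNA side. Zcchc4 (chromosome 5, plus strand, 52775409 to 52824665) was at 16.8 and 17.8 CPM in cko a and b, against 13.9, 18.4 and 14.3 CPM in controls, and control b was the highest of the 5 libraries (log2 0.16, SE 0.23; edgeR adjusted p = 0.800). Mettl4 (chromosome 17, minus strand, 94722590 to 94750019) had the smallest difference of the 10, at 32.8 and 29.1 CPM in cko libraries, against 31.1, 29.4 and 28.4 CPM in controls (log2 0.06, SE 0.21; edgeR adjusted p = 0.920). Its annotated pseudogene Mettl4-ps1 had 1 count in all 5 libraries together. Without cko a the log2 of Mettl4 was -0.027.

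**Figure D2:**
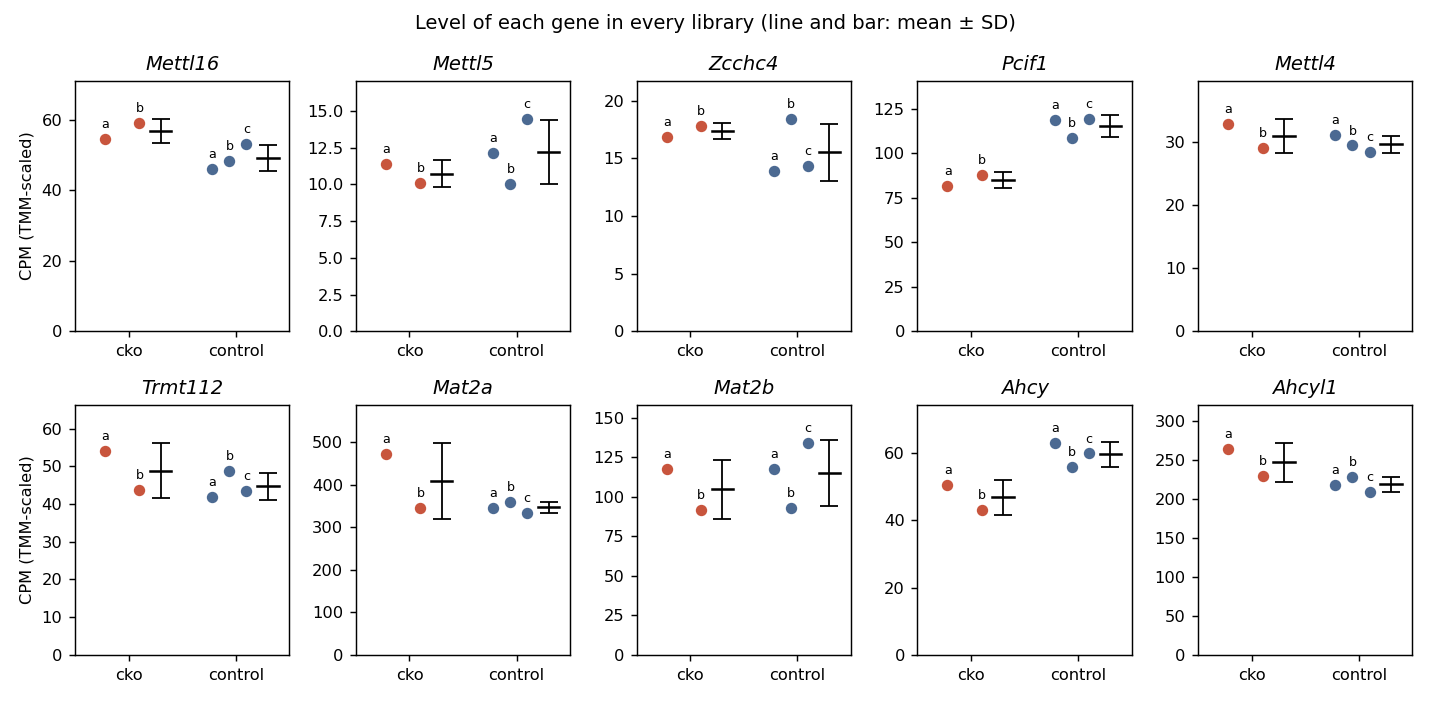
Level of each of the 10 genes in CPM on TMM-scaled library sizes (y axes, from 0), 1 point per library with its letter, cko libraries (n = 2) left of controls (n = 3), with the mean ± SD beside the points. Pcif1 and Ahcy lie lower in both cko libraries than in any control, and Mat2a stands apart in cko a only, at 472 CPM against 335 to 361 CPM in the other 4 libraries.

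On the SAM side, Mat2a, the catalytic subunit of methionine adenosyltransferase, was the most abundant gene and the one in which the 2 cko libraries differed most. It was at 472 and 345 CPM in cko a and b, against 346, 361 and 335 CPM in control a, b and c. Cko a lay far above the other 4 libraries, while cko b lay within the controls, whose SD was 12.8 CPM. The log2 fold change of 0.24 (SE 0.21; 95% interval -0.22 to 0.70; edgeR adjusted p = 0.666) therefore rests on 1 library: it was -0.0083 without cko a and 0.44 without cko b, with 1 cko library in each case. The same 2 libraries differed in their dividing progenitor markers, whose 15 genes summed to 587 and 780 CPM in cko a and b, against 802 to 926 CPM in controls. Of the 15, 12 had a log2 below 0, none was called, and none was at 0 counts in any library. Groups did not overlap in 2 of the 15, against 29.4% of all genes tested. Ccnd1 and Pcna, which made up much of each sum, had overlapping groups, and Mki67 had a log2 of 0.18. Sums of other retinal markers differed between cko a and b to varying degrees. The 9 rod markers summed to 15540 and 10780 CPM, against 13150 to 16630 CPM in controls. The 6 amacrine markers summed to 259 and 427 CPM, against 238 to 332 CPM. The 6 bipolar markers summed to 316 and 211 CPM, against 280 to 321 CPM. Most of that gap was Isl1, at 189 and 87.2 CPM, while Prkca and Cabp5 were slightly higher in cko b. Cone markers summed to 1087 and 931.9 CPM, against 847.2 to 1078 CPM in controls. Ganglion cell markers summed to 480.5 and 414.3 CPM, against 388 to 504.3 CPM. Muller glia markers were nearly equal, at 1454 and 1492 CPM, against 1080 to 1575 CPM. The 2 cko libraries also differed in sex as read from sex-linked genes, 1 female and 1 male. With that sex as a covariate the log2 of Mat2a was 0.26. The part of these cells, or of sex, in the Mat2a difference between cko a and b was not tested. Mat2a (ENSMUSG00000053907) lies on the minus strand of chromosome 6, from 72432799 to 72439558. Of its exon length, 11.3% is shared with Particl, a gene on the other strand that has no row in the table used here. The Mat2a count does not separate the spliced transcript from one that keeps an intron, the step that Mettl16 is known to act on.

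Mat2b, the regulatory subunit (chromosome 11, minus strand, 40679314 to 40695203) had overlapping groups. It was at 118 and 91.8 CPM in cko a and b, against 118, 93.2 and 134 CPM in controls (log2 -0.13, SE 0.22; edgeR adjusted p = 0.822). As in Mat2a, cko a lay above cko b, and without cko b the log2 of Mat2b was 0.035. The ratio of Mat2a to Mat2b counts within a library was 4.01 and 3.76 in cko libraries, against 2.94, 3.87 and 2.50 in controls, and the groups overlapped.

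Ahcy, which hydrolyses S-adenosylhomocysteine (chromosome 2, minus strand, 155059310 to 155074497), had the second largest difference of the 10. It was at 50.4 and 43.1 CPM in cko a and b, against 62.9, 55.7 and 59.8 CPM in control a, b and c, with both cko libraries below every control. The means were 46.8 ± 5.14 CPM (SD, n = 2) in cko and 59.5 ± 3.61 CPM (SD, n = 3) in controls. The log2 fold change was -0.35 (SE 0.19; 95% interval -0.77 to 0.07), and the gene did not pass the test (edgeR adjusted p = 0.507).

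Ahcyl1, the Ahcy-like partner (chromosome 3, minus strand, 107663118 to 107696560), lay on the other side. It was at 265 and 230 CPM in cko a and b, against 218, 228 and 210 CPM in controls; both cko libraries were above every control, cko b by less than the spread among the controls (log2 0.18, SE 0.19; edgeR adjusted p = 0.716). Within each library, the ratio of Ahcyl1 to Ahcy counts was 5.25 and 5.33 in cko libraries, against 3.47, 4.09 and 3.50 in controls. The 2 cko ratios nearly coincided and lay above the 3 control ratios. The ratio was picked after the levels had been seen and is given without a test.

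In all, 4 of the 10 genes had groups that did not overlap, Mettl16 and Ahcyl1 with cko above and Pcif1 and Ahcy with cko below. Over all genes tested 29.4% did, 15.8% with every cko library above and 13.7% with every cko library below. With 10 genes, 4 is not far from that background. Libraries of these retinas also differed in RNA of neighbouring tissues. The 11 lens markers summed to 30.7 and 91.6 CPM in cko b and a, against 817 to 1771 CPM in controls, with 10 of 10 tested genes lower, 8 of them called, and Lim2 at 0 counts in 4 libraries. The 6 blood markers summed to 40.9 and 127 CPM in cko b and a, against 170 to 463 CPM in controls, and the 8 pigment epithelium markers to 138 and 158 CPM, against 208 to 490 CPM; all of these had a log2 below 0, none was at 0 counts, and none was called. The 6 skeletal muscle markers summed to 7.79 and 11.5 CPM in cko b and a, against 16.2 to 50.6 CPM in controls, and the 5 connective tissue markers to 8.67 and 5.39 CPM, against 9.06 to 46.9 CPM, with every tested gene of both lists below a log2 of 0, none called, and Lum at 0 counts in cko a. The part of these tissues in the levels of the 10 genes was not tested. In bulk RNA, fewer cells of a type and less RNA per cell cannot be told apart. The markers of rods, cones, bipolar, amacrine and ganglion cells and of Muller glia were all above 0 counts in every library.

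**Figure D3:**
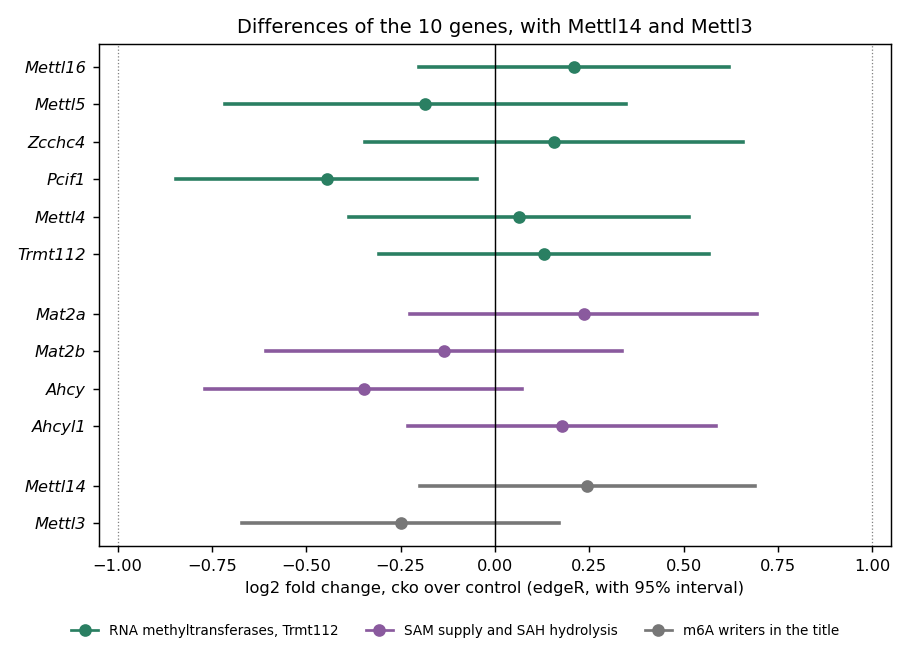
Log2 fold change of cko over control with its 95% interval (x axis) for the 6 genes on the RNA side, the 4 on the SAM side, and Mettl14 and Mettl3; dotted lines mark a halving and a doubling. Pcif1, at -0.45, is the 1 gene whose interval leaves out 0, and no interval reaches a dotted line.

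Levels were compared between genes as reads per kilobase of exon (union of annotated exons) per CPM-scaled library, the RPKM scale. Mat2a stood highest, at 91.12 ± 20.04 (SD, n = 2) in cko and 77.4 ± 2.86 (SD, n = 3) in controls, above every other gene in every library. Trmt112, at 39.6 ± 5.94 (SD, n = 2) and 36.2 ± 2.92 (SD, n = 3), and Ahcyl1, at 37.0 ± 3.70 (SD, n = 2) and 32.7 ± 1.39 (SD, n = 3), followed and overlapped each other. Mat2b, at 21.0 in cko and 23.0 in controls, Ahcy, at 16.7 and 21.2, and Pcif1, at 12.9 and 17.6, came next, each overlapping its neighbour in that order.

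The RNA-side enzymes other than Pcif1 were the least abundant. Mettl5 was at 4.41 in cko and 5.01 in controls, Mettl16 at 4.11 and 3.56, and Mettl4 at 3.85 and 3.69, and neighbours in this order overlapped. Zcchc4 was lowest, at 1.59 ± 0.0643 (SD, n = 2) in cko and 1.43 ± 0.227 (SD, n = 3) in controls. With the length of the longest protein-coding transcript in place of the union of exons, a change made after the data were seen, Mat2a and Zcchc4 kept the first and last places, Ahcyl1 and Mat2b moved above Trmt112, and Mettl4 above Mettl16. Levels depended on that length: the mean over the 5 libraries was then 12.01 for Mettl5, against 4.15 for Mettl16 and 4.54 for Mettl4, and 54.1 for Mat2b, whose exon-union mean was 22.2. On the exon-union scale the mean over the 5 libraries was 82.9 for Mat2a, against 4.77 for Mettl5, 3.78 for Mettl16, 3.75 for Mettl4 and 1.49 for Zcchc4.

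**Figure D4:**
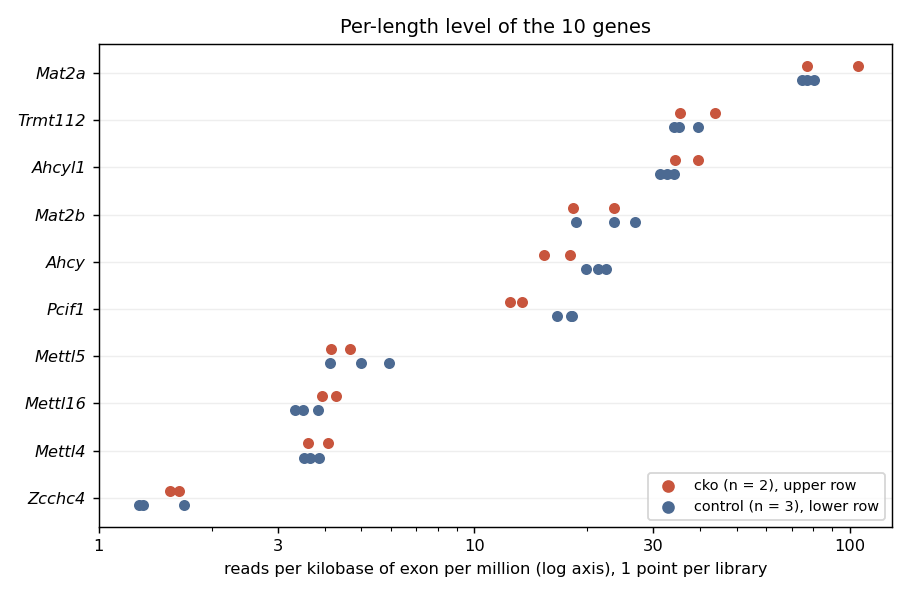
RPKM, the reads per kilobase of exon on the CPM scale (x axis, log scale), of the 10 genes ordered by their mean over the 5 libraries, 1 point per library, cko (n = 2) above controls (n = 3) in each row. Mat2a lies highest, between 74.7 and 105, and Zcchc4 lowest, between 1.28 and 1.69.

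The wider pathways around these genes were read from 6 lists. Of 98 listed genes, 95 were tested and 0 passed edgeR over all genes (0 also with DESeq2 and limma-voom); 4 with a higher and 3 with a lower level in cko stood at an unadjusted p under 0.05, against 10.8% of all genes tested in both directions together. The liver-type enzymes Mat1a, Bhmt and Bhmt2 had at most 3 counts in any library and were the 3 not tested, so Mat2a was the methionine adenosyltransferase gene with appreciable counts in these retinas. Groups did not overlap in 25.3% of the 95, below the 29.4% over all genes tested.

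Trmt112 serves several methyltransferases beside Mettl5, and its 6 other partners had a median log2 of 0.05. N6amt1, which methylates a translation release factor, was at 11.9 and 12.8 CPM in cko a and b, against 7.42, 10.1 and 9.10 CPM in controls (log2 0.48, SE 0.23; edgeR adjusted p = 0.480). Alkbh8, which methylates a wobble uridine of tRNA, was at 21.83 and 26.04 CPM in cko libraries, against 16.7, 19.2 and 19.3 CPM in controls (log2 0.38, SE 0.22; edgeR adjusted p = 0.519). In both, the cko libraries lay above every control. Bud23, which methylates the small-subunit ribosomal RNA beside Mettl5, lay slightly below every control (log2 -0.10), and the tRNA enzyme Trmt11 and the Thumpd proteins Thumpd2 and Thumpd3 had log2 values of -0.08, 0.13 and -0.03 with overlapping groups.

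In the methionine and folate cycles (23 of 26 tested, median log2 0.06), the smallest p belonged to Ahcyl2, the close relative of Ahcyl1. It was at 33.6 and 38.1 CPM in cko a and b, against 20.9, 25.1 and 16.6 CPM in controls, with both cko libraries above every control. The log2 fold change was 0.78 (SE 0.23; 95% interval 0.27 to 1.29), larger than that of any of the 10 genes, and did not pass over all genes (edgeR adjusted p = 0.430). Gldc, the glycine cleavage enzyme and most abundant gene of the list, was at 105 and 122 CPM in cko libraries, against 140, 149 and 123 CPM in controls (log2 -0.27, SE 0.19).

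In the list of polyamine synthesis, methionine salvage and transsulfuration (15 tested, median log2 -0.17), Gclm, the modifier subunit of the enzyme that starts glutathione synthesis, was at 12.3 and 14.9 CPM in cko libraries, against 19.4, 19.5 and 23.1 CPM in controls (log2 -0.60, SE 0.23; edgeR adjusted p = 0.438). Its catalytic partner Gclc, named after its values were seen, lay the other way, at 46.1 and 46.3 CPM, against 32.4, 38.1 and 26.1 CPM (log2 0.52, SE 0.22; edgeR adjusted p = 0.443). Groups did not overlap in either gene, nor in 5 of the 15 in all, against 29.4% of all genes tested. Odc1, the first enzyme of polyamine synthesis and the most abundant of the list, had overlapping groups (log2 -0.13).

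Among the other RNA methyltransferases, the tRNA list had a median log2 of 0.02 over 27 genes tested. Nsun3, which methylates a mitochondrial tRNA, was at 18.1 and 13.1 CPM in cko a and b, against 8.87, 11.3 and 9.63 CPM in controls (log2 0.65, SE 0.24; edgeR adjusted p = 0.433), and the most abundant gene, Trmt2a, had a log2 of 0.10. The list of ribosomal and mitochondrial RNA enzymes had a median of -0.03 over 15. Mrm1, a mitochondrial ribosomal RNA methyltransferase, was at 4.33 and 5.14 CPM in cko libraries, against 8.22, 7.69 and 9.32 CPM in controls (log2 -0.83, SE 0.25; edgeR adjusted p = 0.430), and Emg1, which methylates the small-subunit ribosomal RNA and was the most abundant of the list, had a log2 of -0.42 with overlapping groups.

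The 9 genes of the cap and small RNA list, enzymes and partner proteins, had a median of -0.05. They work on the RNA cap or small RNAs, the kinds of substrate of Pcif1 and Mettl16. The smallest p there was that of Mepce, which caps the 7SK RNA, at 30.7 and 41.7 CPM in cko libraries, against 47.7, 47.4 and 52.4 CPM in controls (log2 -0.44, SE 0.21; edgeR adjusted p = 0.470). Tgs1, which adds further methyl groups to the cap of small RNAs and was the most abundant, was at 142 and 91.2 CPM in cko a and b, against 111, 105 and 134 CPM in controls, so the 2 cko libraries lay on either side of the controls. None of the 9 was called.

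**Figure D5:**
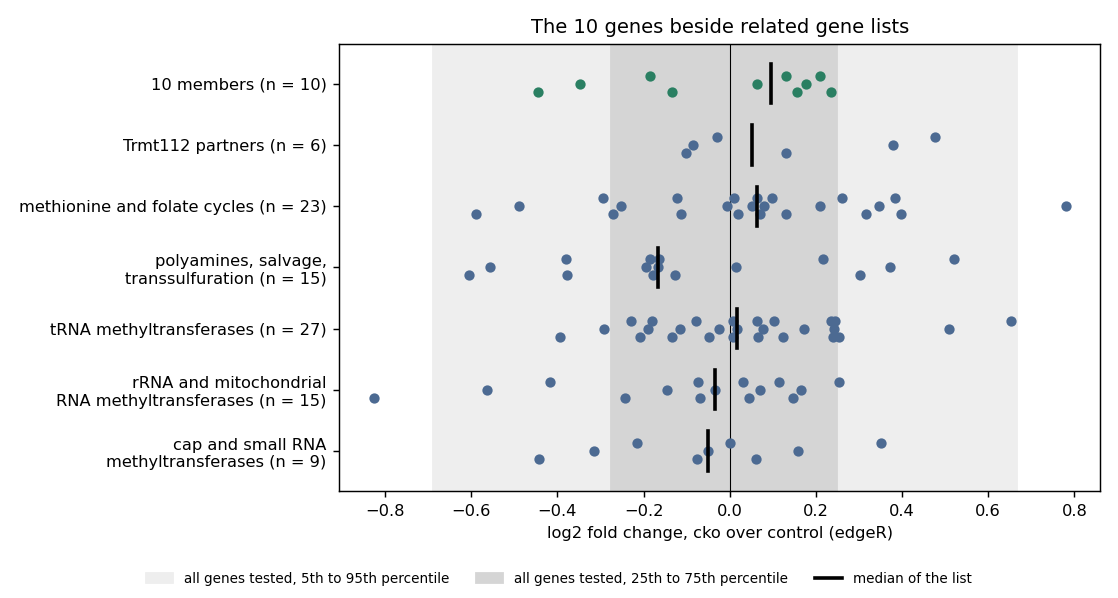
Log2 fold change of cko over control (x axis) of each tested gene, 1 point per gene, for the 10 genes and the 6 related lists, with the median of each as a black bar; grey bands give the 5th to 95th and 25th to 75th percentiles of all genes tested. The 10 genes lie inside the wider band, which runs from -0.69 to 0.67, and Mrm1 and Ahcyl2 lie outside it, at -0.83 and 0.78.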

How the data were processed

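The authors deposited raw read counts per gene, whole numbers without normalization, for 43432 Ensembl gene IDs; the submitters' processing notes name CASAVA, HISAT2, featureCounts and mm10. Not given in the sources used here are versions, the annotation release, whether strand was used, and how multi-mapping reads were handled. Symbols matched 42462 IDs. Coordinates and exon lengths come from GENCODE M21 (GRCm38), 1-based.

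Counts were fitted in R 4.3.3 with edgeR 4.0.16 (filterByExpr, minimum count 10; TMM; quasi-likelihood F test; no covariate) on 17039 genes and all 5 libraries, with Benjamini-Hochberg adjustment over all genes tested. The SE is the absolute log2 fold change over the square root of F. DESeq2 1.42.0 and limma-voom (limma 3.58.1) were alternatives; all were tested on simulated data. Every pair of libraries differed by more than counting noise (chi-square per degree of freedom of at least 29.4), so each was kept. Library totals were similar in both groups.

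The 10 genes and the lists were chosen with earlier results of these data known. Named are all 10, Mettl14, Mettl3, all Trmt112 partners and, per other list without calls, the genes with the smallest p and the highest mean; others were named after their values were seen.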

Additional observations from a re-analysis of the deposited data

How the results depend on the processing

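None of the 10 genes and none of the 95 tested genes of the related lists was called in any of the 14 alternatives: other scaling factors, other filters, DESeq2, limma-voom, each library left out, the title's letter as a block, and sex read from sex-linked genes as a covariate. Pcif1, Ahcy, Mettl5, Mettl16, Zcchc4 and Ahcyl1 kept their direction in all 14; Pcif1 ran from -0.50 to -0.38 and Ahcy from -0.46 to -0.24, and Pcif1 had an unadjusted p under 0.05 in 10 of 14. With 1 library left out, the log2 of Mettl4 ran from -0.0268 to 0.148, of Trmt112 from -0.0312 to 0.275, of Mat2a from -0.0083 to 0.444, of Mat2b from -0.327 to 0.0347, and the median of the 10 from -0.029 to 0.131; the reversals came without cko a (Mettl4, Trmt112, Mat2a, the median) or cko b (Mat2b), and the single cko library left is assumed to vary like the controls. Genes called over the whole table, 17 in the main test, were 11 with library totals, 262 with no low-count filter, 85 with DESeq2, 9 with the sex covariate, and 0 (without cko b; 2210 at an unadjusted p under 0.05) to 45 (without control b) with a library left out; the cause was not tested. The letters do not pair the samples by any label: deviations correlated at -0.0624 for cko a with control a and 0.229 for cko b with control b. With the replicate block 39 genes were called, none among the 10. Control c has no cko partner in that model, so the difference rests on the libraries with letters a and b, with few degrees of freedom left. At this depth and number of libraries, the precision of each difference is that of its 95% interval.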
